A study of Mus musculus with 6 samples.

Results

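A set of 10 genes chosen for high levels in small peritoneal macrophages (SPMs) or in macrophages (MΦs) with Irf4, most of them tied to cell fusion, tissue remodelling or surface recognition, was followed across the leukocytes of the mouse peritoneal cavity. They are Ocstamp, Dcstamp, Mmp19, Inhba, Fcrls, Itgax, Ear2, Siglecf, Lyz1 and Folr2, 10 of the 55538 features in the count table, of which 23943 had at least 1 count in a kept cell. The 10 genes were chosen from their levels in these same cells, because they had been high in SPMs or in MΦs with Irf4, so their difference between macrophage classes is a description here and was given no test. The cells came from a droplet single-cell RNA-seq experiment on efferocytosis, the uptake of dying cells. Adherent cells of peritoneal lavages from adult C57BL/6J mice were plated, and 3 conditions were made for each of 2 genotypes, Mertk+/+ (labelled WT) and Mertk-/- (labelled MerKD). Control cells had a media change, and the other cells were cultured for 2 h or 6 h with apoptotic cells (ACs), which were human Jurkat T cells killed with ultraviolet light. Each of the 6 conditions is 1 library made from the pooled cells of several mice. Mertk, which the second genotype lacks, encodes a receptor for ACs, and all groups shared the adherence step and the culture.

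Each cell barcode ends in a number from 1 to 6, and the sources used here do not say which condition a number stands for. Genotypes and times were therefore not compared, and every value below is from the 6 libraries summed or from a library known by its number. Values from cells of 1 library are not replicates of a condition, so no p-value is given, and the intervals (95%) cover counting error only.

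Peritoneal macrophages fall into 2 well-known kinds. Large peritoneal macrophages (LPMs) are long-lived resident cells that depend on the transcription factor GATA6, whereas SPMs carry MHC class II, arise from monocytes and need the transcription factor IRF4. Macrophages can fuse into multinucleated giant cells, and osteoclasts form in the same way. This needs the membrane proteins DC-STAMP and OC-STAMP, the products of Dcstamp and Ocstamp, and giant cells go on to degrade matrix with secreted proteases. Some members have no known part in fusion: Lyz1 encodes a lysozyme, Folr2 a folate receptor found on resident macrophages, and Siglecf a sialic acid-binding receptor best known from eosinophils and alveolar macrophages.

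Cells were classed by raw counts of unique molecular identifiers (UMIs, each standing for 1 captured RNA molecule). A cell was called a MΦ with at least 2 UMIs of Csf1r, Adgre1 and Fcer1g together, at most 2 UMIs of Cd79a and Cd79b, and at most 1 UMI of Cd3d, Cd3e and Nkg7. Of 7665 kept cells, 2773 were MΦs. They were split at 1 UMI into 255 Irf4+ Gata6- MΦs, 635 Gata6+ Irf4- MΦs, 22 MΦs with both genes and 1861 MΦs with neither. B cells (at least 4 UMIs of Cd79a and Cd79b, 3101 cells) and T/NK cells (at least 2 UMIs of Cd3d, Cd3e and Nkg7, 667 cells) served as background, and 153 cells met both of these definitions. Libraries held between 4234786 and 10287079 UMIs. The median cell had 4038 UMIs among Irf4+ Gata6- MΦs, 5519 among Gata6+ Irf4- MΦs, 4139 among MΦs with neither, 5561 among B cells and 3206 among T/NK cells. Library 6 gave 113 of the 255 Irf4+ Gata6- MΦs and library 2 gave 14. Across libraries, 28 barcode sequences occurred in 2 libraries, of which none was an Irf4+ Gata6- MΦ, and 47 barcodes were called as doublets, 2 of them in that class.

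The classes carried the markers of their names. Of 12 SPM markers, 11 had enough UMIs to compare and all 11 were at least 2-fold higher in Irf4+ Gata6- than in Gata6+ Irf4- MΦs, among them Retnla with 4888 against 208 CPM (UMIs of a gene per 1000000 UMIs of the class) and H2-Ab1, an MHC class II gene, with 2454 against 443 CPM. All 13 LPM markers were at least 2-fold lower, including Prg4 with 341 against 1812 CPM and Selp with 20.9 against 238 CPM. Over all 10733 genes compared between these classes, 12.5% were at least 2-fold higher and 11.2% at least 2-fold lower. Markers of other cells moved with the classes too. The B cell markers that could be compared, 4 of 6, were higher in Irf4+ Gata6- MΦs, and the 6 together ranged over libraries from 46.4 to 271 CPM there and from 0 to 25 CPM in Gata6+ Irf4- MΦs, against 3892 to 5838 CPM in B cells. Irf4 itself was found in 44.3% of B cells. The 4 of 8 dendritic cell (DC) markers that could be compared were all at least 2-fold higher in Irf4+ Gata6- MΦs. Batf3 had 28.4 against 0.525 CPM, Ccr7 38.4 against 6.31, Zbtb46 17.5 against 5.52 and Cd209a 10.0 against 2.10 CPM. Flt3, Xcr1 and Clec9a had 1, 0 and 0 UMIs in the Irf4+ Gata6- class, but only 41, 2 and 10 in the whole table. The rule for MΦs used none of the DC markers. The part of B cell or DC RNA in the levels of the 10 genes was not tested.

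Dcstamp (chromosome 15, 39745930–39760938, plus strand of GRCm38, as are all gene positions below) encodes the fusion receptor of osteoclasts and giant cells. It had 405 CPM (370.0–443) in Irf4+ Gata6- MΦs, 70.5 CPM (65.0–76.4) in MΦs with neither gene and 4.47 CPM (2.60–7.15) in Gata6+ Irf4- MΦs. By library, Irf4+ Gata6- MΦs had a lowest value of 255 CPM in library 4, a median of 451 CPM and a highest of 545 CPM in library 5, and Gata6+ Irf4- MΦs had 2.02, 4.68 and 7.70 CPM in the same order. The library values of these classes did not overlap, nor did those of Irf4+ Gata6- MΦs and of MΦs with neither, whose highest was 161 CPM in library 6. The share of all genes whose library values do not overlap is not given here, so nothing is read from this for any member. The ratio of Irf4+ Gata6- to Gata6+ Irf4- MΦs was 90.7 (56.1–157).

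Ocstamp (chromosome 2, 165393760–165400405, minus strand), which encodes the partner protein of DC-STAMP in fusion, had 122 UMIs in Irf4+ Gata6- MΦs and 1 UMI in Gata6+ Irf4- MΦs. The levels were 102 CPM (84.5–121) and 0.263 CPM (0.00665–1.46), and MΦs with neither gene had 5.10 CPM (3.71–6.85). In Irf4+ Gata6- MΦs the libraries ran from 33.3 CPM in library 4 over a median of 89.6 to 218 CPM in library 5, and each lay above the highest library of MΦs with neither, 12.6 CPM. With 1 UMI as its base, the ratio to Gata6+ Irf4- MΦs could be placed only between 68.2 and 15418. That UMI was in library 1, and without this library the log2 ratio was 6.39, with the floor as its base, in place of 8.60. With equal weight to each library it was 9.86. The value of library 5 came from 14 UMIs, 7 of them in 1 cell, so the order of the libraries is not firm.

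Both fusion receptors followed the same order of classes. Of 27 other genes of fusion and multinucleation, 22 had at least 10 UMIs over these 2 classes. At least 2-fold higher in Irf4+ Gata6- MΦs were 7 of the 22, 3 were at least 2-fold lower and 12 lay between, with a median log2 ratio of 0.47 against 0.07 over all 10733 genes with that many UMIs, of which 12.5% were 2-fold higher and 11.2% 2-fold lower. Atp6v0d2, a proton pump subunit needed for osteoclast fusion, had 29.2 against 0.525 CPM, Cd200r1, an inhibitory receptor, 309 against 43.9 CPM, and Ccl2, a monocyte chemoattractant, 1024 against 239 CPM. Also higher were Cd200, Itgav and Adam8, a metalloprotease with 812 against 386 CPM. Mmp9 was at least 2-fold higher by its ratio, but 8 and 12 UMIs leave its log2 ratio between −0.41 and 2.49. Cd47, the ligand of SIRPα, was lower, with 89.2 against 185 CPM, as were Snx10 and Mst1r. The tetraspanins Cd9 and Cd81 and the adaptor Tyrobp lay between. Ctsk, the collagen-degrading protease of osteoclasts, had 13 UMIs in all 2773 MΦs, and the osteoclast receptor gene Oscar had none.

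Mmp19 (chromosome 10, 128790910–128800824, plus strand) encodes a secreted matrix metalloproteinase. It had 1512 CPM (1443–1583) in Irf4+ Gata6- MΦs, 173 CPM (164–182) in MΦs with neither and 27.1 CPM (22.1–32.8) in Gata6+ Irf4- MΦs. In Irf4+ Gata6- MΦs the libraries ran from 860 CPM in library 4 over a median of 1410 to 1938 CPM in library 6, and in Gata6+ Irf4- MΦs from 10.7 over 21.2 to 89.3 CPM in library 3, so they did not overlap. The ratio was 55.9 (45.8–68.8). A positive Irf4+ Gata6- MΦ held on average 11.7 UMIs of Mmp19, with up to 86 in a cell, against 1.72 in a positive Gata6+ Irf4- MΦ.

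Of 22 other metalloproteinases and their inhibitors, 2 had no UMI in the table and 6 could be compared. At least 2-fold higher in Irf4+ Gata6- MΦs were 4 of these 6, against 12.5% of all 10733 genes compared, none was 2-fold lower, against 11.2%, and their median log2 ratio was 1.90. Mmp12, the elastase of macrophages, had 750.5 against 36.5 CPM, and the collagenase Mmp13 had 224 against 33.9 CPM. The inhibitor Timp1 had 158 against 21.0 CPM, while Timp2 had 122 against 228 CPM and Mmp14, a membrane-bound protease, 55.9 against 43.9 CPM. Mmp9 was the remaining gene that passed 2-fold, and its interval, given above, holds 0.

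Inhba (chromosome 13, 16011851–16031621, plus strand) encodes the subunit of activin A, a ligand of the TGF-β family. It had 582 CPM (539.7–627) in Irf4+ Gata6- MΦs, 50.3 CPM (45.7–55.3) in MΦs with neither and 14.7 CPM (11.1–19.1) in Gata6+ Irf4- MΦs, a ratio of 39.6 (30.1–52.9) between the first and the last. Its level varied widely between libraries. Irf4+ Gata6- MΦs had 310 CPM in library 1, 1359 in library 2, 1010 in library 3, 155 in library 4, 981 in library 5 and 346 in library 6. The values of libraries 2, 3 and 5 were high and those of libraries 1, 4 and 6 low, and no interval of the former reached one of the latter. In library 2 the level rested on 7 positive cells of 14, with 42.3% of the UMIs in 1 cell. Gata6+ Irf4- MΦs had 85.4 CPM in library 3, their highest, and 0 in library 5. Library 3 was also the highest among MΦs with neither, at 187 CPM, which is above the lowest library of Irf4+ Gata6- MΦs.

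Of 14 other genes of the activin pathway, including the receptors Acvr1b and Acvr2a, the antagonist Fst and the SMAD signal transducers, 10 could be compared. None was at least 2-fold higher in Irf4+ Gata6- MΦs, 2 were at least 2-fold lower (Acvr1b with 10.0 against 20.8 CPM and the co-receptor Tgfbr3 with 5.84 against 16.8 CPM), and the median log2 ratio was −0.43. Over all 10733 genes compared, 12.5% were 2-fold higher and 11.2% 2-fold lower. Fst, whose product binds activin, had 10.8 against 15.8 CPM, a difference of −0.54 on the log2 scale (−1.53 to 0.34) that could not be told from 0 at this depth. Inhbb, which encodes the other activin β subunit, had 2 UMIs in all MΦs.

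Fcrls (chromosome 3, 87250758–87263738, minus strand) encodes a scavenger receptor-like relative of the Fc receptors. It had 137 UMIs and 114 CPM (95.9–135) in Irf4+ Gata6- MΦs, 110 UMIs and 12.8 CPM (10.5–15.4) in MΦs with neither, and 0 UMIs in the 635 Gata6+ Irf4- MΦs. With a floor of 3 UMIs for that class, the ratio of Irf4+ Gata6- to Gata6+ Irf4- MΦs was 145, and its exact lower limit was 116. The log2 ratio at this floor was 7.18, and 6.54 without library 1, which held 206 of the 635 cells. By library Irf4+ Gata6- MΦs ran from 27.7 CPM in library 4 over a median of 103 to 169 CPM in library 3. MΦs with neither ran from 7.0 to 23.1 CPM. The share of Irf4+ Gata6- MΦs with an Fcrls UMI was 31.0% (25.4–37.0%). Of 5 genes of the Fc receptor-like family proper, Fcrl1, a B cell gene, was the 1 that could be compared. It was higher in Irf4+ Gata6- MΦs, with 9.17 against 1.84 CPM on 11 and 7 UMIs. B cells had 64.3 CPM, and the part of B cell RNA was not tested.

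Itgax (chromosome 7, 128129547–128150657, plus strand) encodes the αX integrin chain CD11c, by which SPMs and DCs are sorted. It had 226 CPM (199.9–255) in Irf4+ Gata6- MΦs, 47.9 CPM (43.4–52.8) in MΦs with neither and 2.10 CPM (0.907–4.14) in Gata6+ Irf4- MΦs, a ratio of 108 (53.8–252) whose log2 value was 6.75, 6.16 without library 1 and 5.58 with equal weight to each library. Libraries 3 and 6 were highest, at 331 and 320.4 CPM, and the other 4 lay between 61.0 and 111 CPM, with a median of 110.4 CPM over the 6. MΦs with neither reached 114 CPM in library 3, so these 2 classes overlapped between libraries, although Irf4+ Gata6- MΦs were higher within each of the 6. Of the other β2 integrin chains, Itgam (CD11b), the LPM marker, went the other way with 322 against 644 CPM, Itgal was higher on 10 against 7 UMIs, and the shared β chain Itgb2 was nearly level with 605 against 536 CPM. Itgad, which shares 3.17% of the 98-base windows of the Itgax transcripts, had no UMI in MΦs.

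Siglecf (chromosome 7, 43351341–43359531, plus strand) had 187 UMIs and 156 CPM (134–180.0) in Irf4+ Gata6- MΦs. It had 8.12 CPM (6.33–10.3) in MΦs with neither and 0 UMIs in Gata6+ Irf4- MΦs. With the floor as its base, the ratio of Irf4+ Gata6- to Gata6+ Irf4- MΦs was 198, and its exact lower limit was 159. The log2 ratio at the floor was 7.63, and 6.89 without library 1. The libraries of Irf4+ Gata6- MΦs ran from 72.1 CPM in library 4 over a median of 163 to 327 CPM in library 5, where 52.4% of the UMIs were in 1 cell. The highest library of MΦs with neither had 33.7 CPM. The listed markers of the cells best known for this receptor were mixed. The eosinophil granule genes Prg2 and Epx had no UMI in the table, Il5ra had none in Irf4+ Gata6- MΦs and Ccr3 had 1. Of the alveolar macrophage markers, Car4 had none in MΦs, Marco was lower with 53.4 against 110 CPM, Fabp4 and Chil3 lay within 2-fold, and Pparg was higher with 14.2 against 1.31 CPM on 17 and 5 UMIs. In its own family Siglecg had 47.5 against 0.525 CPM, but 255 CPM in B cells, and the part of B cell RNA was not tested. Cd33 had 19.2 against 58.3 CPM, and Siglece 1.67 against 3.68 CPM on 2 and 14 UMIs.

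Ear2 (chromosome 14, 44102654–44103534, plus strand) encodes a ribonuclease of the eosinophil-associated family. It had 39 UMIs and 4.52 CPM (3.22–6.19) in MΦs with neither and 0 in Gata6+ Irf4- MΦs. In Irf4+ Gata6- MΦs it had 33 UMIs and 27.5 CPM (18.9–38.6). With a floor of 3 UMIs, their ratio to Gata6+ Irf4- MΦs was 34.9, and its exact lower limit was 26.8. Library 1 had 0 UMIs in 31 cells, which leaves an upper limit of 11.2% of such cells with a UMI by the exact interval, library 4 had 5.55 CPM, the median over the 6 was 21.0 CPM and library 6 had 48.7 CPM. Of the 33 UMIs, 19 were from library 6, and without it the log2 ratio at the floor fell from 5.13 to 4.39. The Ear genes are near-identical copies, and 14.1% of the 98-base windows of the Ear2 transcript occur in Ear10 or Ear-ps2. Reads from these windows cannot be assigned to 1 gene by sequence. Ear1, Ear6, Ear10 and Ear14 had no UMI in the table, and none of the 7 listed ribonucleases reached 10 UMIs over the 2 classes.

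Lyz1 (chromosome 10, 117287797–117292868, minus strand) encodes the lysozyme best known from Paneth cells, and its neighbour Lyz2 (117277331–117282321) the lysozyme of myeloid cells. The start of both coding sequences is shown because the counts of these 2 genes rest on telling them apart. They are the first 150 of 447 coding bases, from the GENCODE vM21 transcripts, with the bases that differ in capitals.
Lyz1: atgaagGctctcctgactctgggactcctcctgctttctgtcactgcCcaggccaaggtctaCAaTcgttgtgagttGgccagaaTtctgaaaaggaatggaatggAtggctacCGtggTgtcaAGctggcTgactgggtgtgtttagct
Lyz2: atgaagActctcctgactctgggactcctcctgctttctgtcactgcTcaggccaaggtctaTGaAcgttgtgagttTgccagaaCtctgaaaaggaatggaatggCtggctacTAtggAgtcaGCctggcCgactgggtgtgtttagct
There are 14 differing bases in this stretch and 22 in the whole coding sequence, an identity of 95.1%, and 2.40% of the 98-base windows of the Lyz1 transcript also occur in Lyz2.

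Lyz1 was the widespread member. It was found in 80.4% of Irf4+ Gata6- MΦs (75.0–85.1%), 81.1% of Gata6+ Irf4- MΦs (77.8–84.1%) and 76.6% of MΦs with neither (74.6–78.5%), and what differed was the number of UMIs. A positive cell held on average 22.4 UMIs in the first class, 6.68 in the second and 9.18 in the third. The level was 3832 CPM (3722–3944) in Irf4+ Gata6- MΦs against 904 CPM (874–935) in Gata6+ Irf4- MΦs, a ratio of 4.24 (4.05–4.43). By library the first class ran from 2651 CPM in library 4 over a median of 3706 to 5728.5 CPM in library 3, and the second from 682 over 1091 to 1266 CPM. These ranges did not overlap.

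Lyz2 went the other way, with 9880 CPM in Irf4+ Gata6- and 18023 CPM in Gata6+ Irf4- MΦs, and library ranges of 6356 to 12718 and 15837 to 20780 CPM. Lyz1 thus made up 27.9% (27.3–28.6%) of the UMIs of the 2 lysozymes in Irf4+ Gata6- MΦs, between 17.3% in library 4 and 38.1% in library 2. In Gata6+ Irf4- MΦs it made up 4.78% (4.62–4.94%), between 3.86% and 6.41%, and in MΦs with neither 9.43% (9.28–9.59%). Of the lysozyme UMIs in B cells and in T/NK cells, 13.2% (12.3–14.1%) and 6.69% (5.93–7.52%) were Lyz1.

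Folr2 (chromosome 7, 101839988–101857194, minus strand), the folate receptor β gene, had 26.7 CPM (18.3–37.7) on 32 UMIs in Irf4+ Gata6- MΦs, 19.6 CPM (16.8–22.8) on 169 UMIs in MΦs with neither and 3.94 CPM (2.21–6.5) on 15 UMIs in Gata6+ Irf4- MΦs. Its log2 ratio between the first 2 classes was 0.44 (−0.15 to 1.00), an interval that holds 0, and it was higher in Irf4+ Gata6- MΦs in 4 of 6 libraries. Against Gata6+ Irf4- MΦs the ratio was 6.77 (3.56–13.5), higher in 5 of 6 libraries. By library Irf4+ Gata6- MΦs ran from 3.31 CPM in library 3 over a median of 32.2 to 93.4 CPM in library 5, and the Gata6+ Irf4- MΦs of library 6, with 16.4 CPM, lay within that range. Of 134 positive MΦs, 103 had neither Irf4 nor Gata6 and 19 were Irf4+ Gata6-, which was 5.53% of the 1861 MΦs with neither and 7.45% of the 255 Irf4+ Gata6- MΦs. Folr1 had no UMI in MΦs. Of the 8 listed genes of folate uptake and use, 5 could be compared. Slc19a1, the reduced folate carrier, was at least 2-fold higher on 8 against 9 UMIs, and 4 lay between. Over all 10733 genes compared, 12.5% were at least 2-fold higher.

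**Figure D1:**
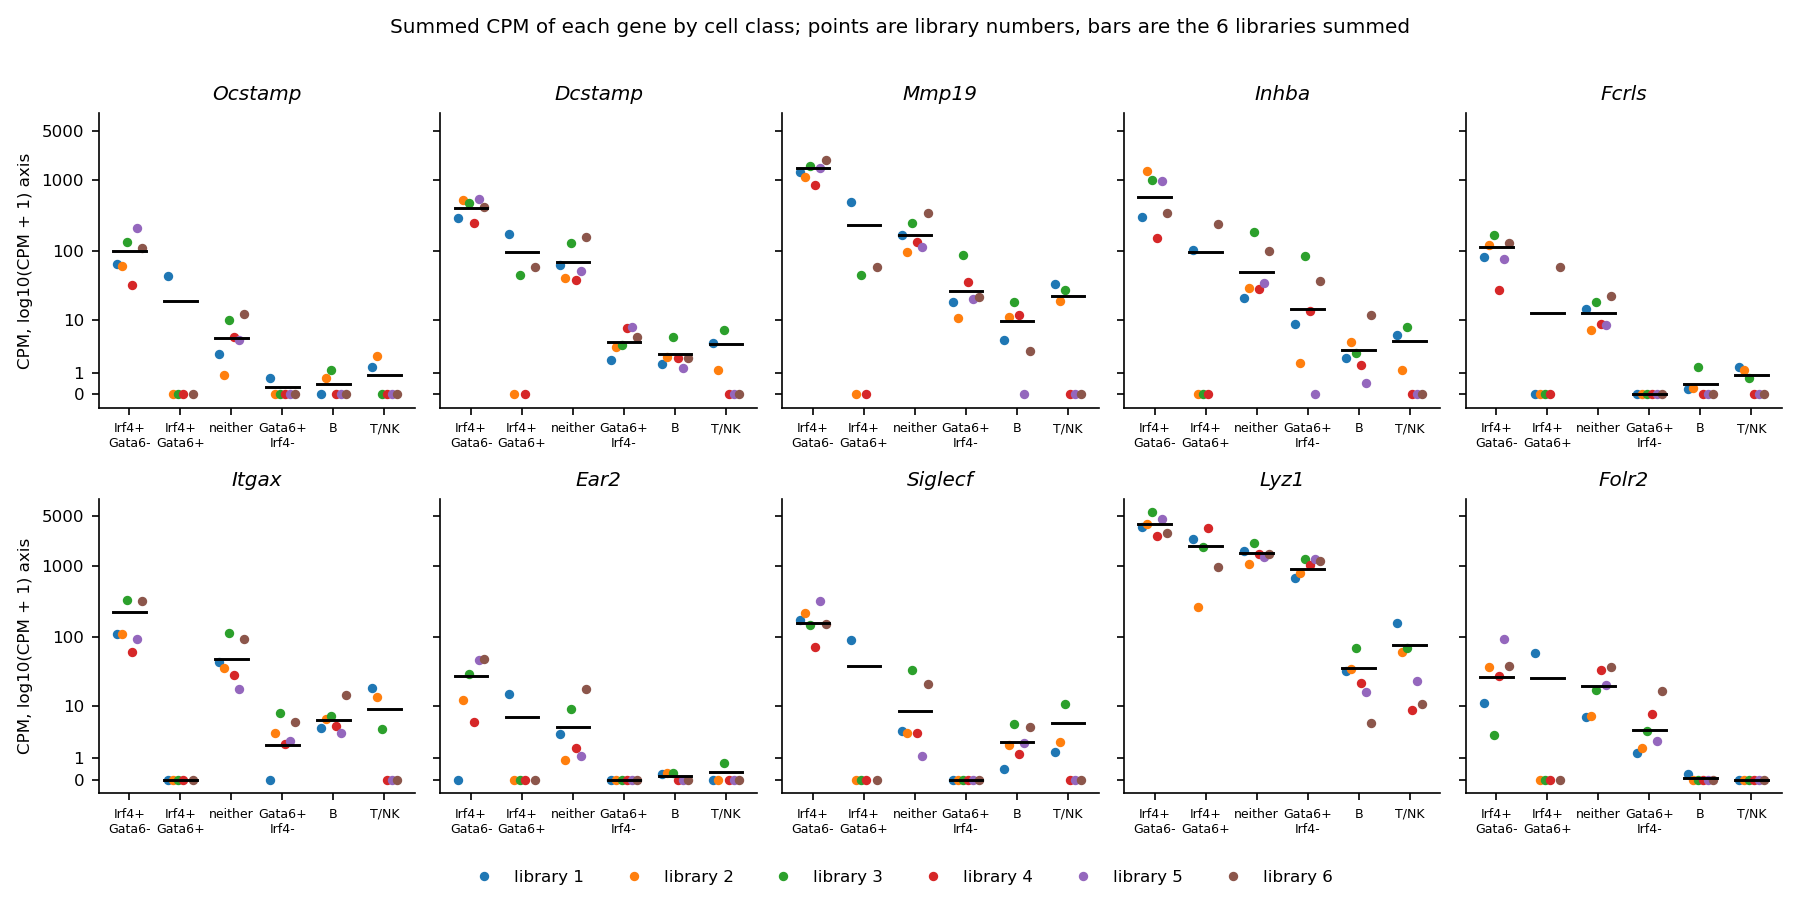
Level of each gene (vertical axis, CPM on a log10(CPM + 1) scale) in 4 macrophage classes, B cells and T/NK cells. Points are the 6 libraries, bars the libraries summed, and a class without cells in a library has no point. Of Inhba, Irf4+ Gata6- MΦs reach from 155 to 1359 CPM, and Fcrls, Ear2 and Siglecf sit at 0 in the Gata6+ Irf4- MΦs of every library.

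Set beside all genes, the 10 lay at the upper end of the difference between the classes, as their choice requires. All 10 were at least 2-fold higher in Irf4+ Gata6- than in Gata6+ Irf4- MΦs, where 12.5% of 10733 genes were so and 11.2% were at least 2-fold lower. All 10 were also at least 4-fold higher, against 4.4% of these genes. Their median log2 ratio was 6.15, with Fcrls, Ear2 and Siglecf set against the floor, against a median of 0.07 and a 95th percentile of 1.85 over all genes. The lowest was Lyz1, with 2.08, followed by Folr2, with 2.76, and the other 8 lay above 5. MΦs with neither gene stood between: 9 of 10 were at least 2-fold higher in them than in Gata6+ Irf4- MΦs, where 6.23% of 12433 genes were, and the exception was Lyz1 with 1.68-fold. Likewise 9 of 10 were at least 2-fold higher in Irf4+ Gata6- MΦs than in MΦs with neither, against 9.7% of 12063 genes, and here the exception was Folr2. These comparisons share classes of cells and were the base of the choice, so nothing is read from the shares.

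**Figure D2:**
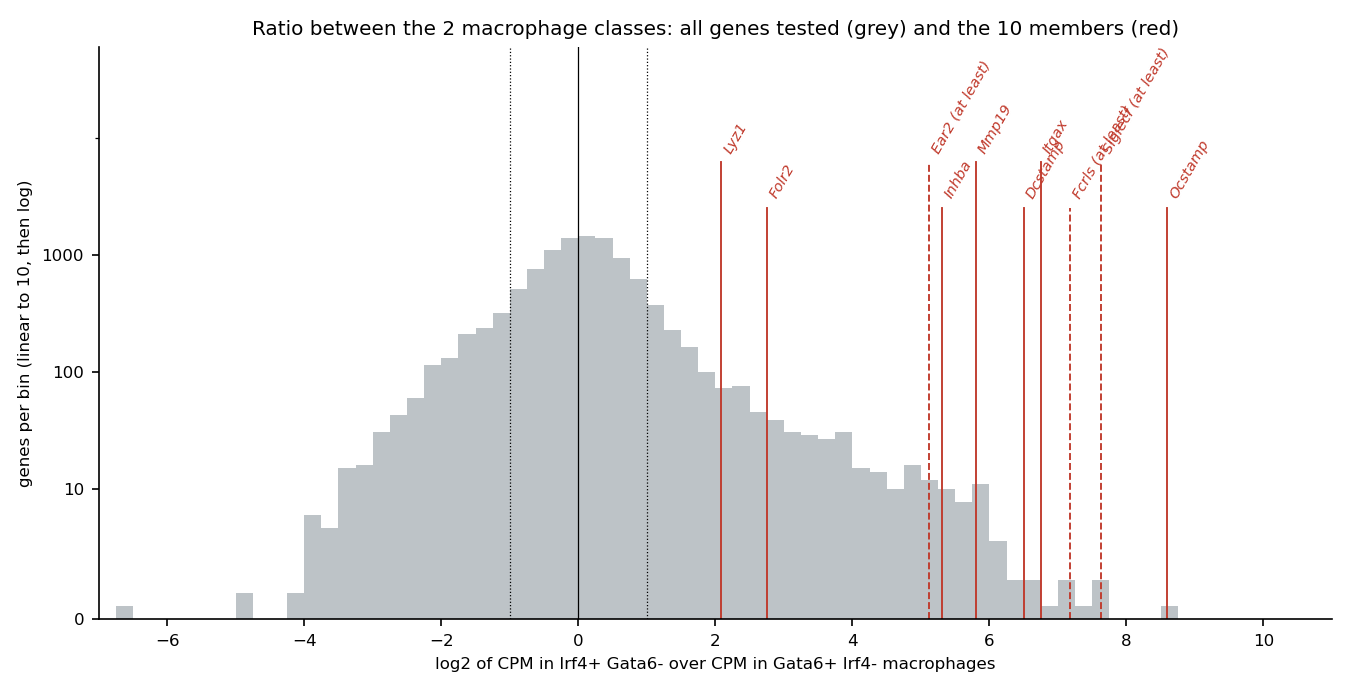
Histogram of the log2 ratio of CPM between Irf4+ Gata6- and Gata6+ Irf4- MΦs over 10733 genes (grey). The number of genes per bin is shown on a scale linear to 10 and logarithmic above. Red lines are the 10 members, dashed where the ratio was taken against the floor. Dotted lines mark 2-fold, and the members run from 2.08 for Lyz1 to 8.60 for Ocstamp.

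The share of cells with a UMI gave the same order for most members. In Irf4+ Gata6- MΦs it was 60.8% for Mmp19, 52.5% for Dcstamp, 43.9% for Itgax, 36.5% for Inhba, 31.0% for Fcrls, 22.4% for Siglecf, 21.6% for Ocstamp, 10.2% for Ear2 and 7.45% for Folr2. In Gata6+ Irf4- MΦs it was 9.45% for Mmp19, 3.62% for Inhba, 2.2% for Dcstamp, 1.26% for Itgax and 0.157% for Ocstamp. The latter class had the higher median depth. After thinning cells to 1500 UMIs, with 8 of 255 and 4 of 635 cells too shallow to use, the shares in Irf4+ Gata6- MΦs were 51.4% for Mmp19, 39.7% for Dcstamp, 28.3% for Inhba, 24.3% for Itgax, 17.4% for Fcrls, 13.0% for Siglecf and for Ocstamp, and 3.24% for Ear2, and the highest of these 8 in Gata6+ Irf4- MΦs was 3.80% for Mmp19. For Lyz1 thinning brought out a difference, 70.0% (63.9–75.7%) against 55.0% (51.0–58.9%). For Folr2 it gave 2.83% (1.15–5.75%) in Irf4+ Gata6- MΦs and 2.74% (2.03–3.60%) in MΦs with neither.

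B cells and T/NK cells, in which most of these genes are not known to be expressed, gave the background level. Itgax is an exception, since some NK and B cells carry CD11c. Their shares were at or below 1.35% for 8 members, 2.90% and 3.0% for Itgax, and 2.77% and 4.95% for Lyz1, at median depths of 5561 and 3206 UMIs. The share of Gata6+ Irf4- MΦs lay at or under these levels for Ocstamp, which is read as background, and for Itgax, and Fcrls, Siglecf and Ear2 had none. Dcstamp with 2.2% (1.21–3.67%) against 0.903% and 0.900%, Inhba with 3.62% (2.31–5.39%) against 0.580% and 0.900%, and Mmp19 with 9.45% (7.29–12%) against 1.06% and 1.35% lay above it. So did Folr2 with 1.73% (0.868–3.08%) against 0.0322% and 0, and Lyz1 with 81.1% (77.8–84.1%) against 2.77% and 4.95%. Within T/NK cells 1 cell held 64.3% of the Dcstamp UMIs and 55.6% of the Siglecf UMIs.

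**Figure D3:**
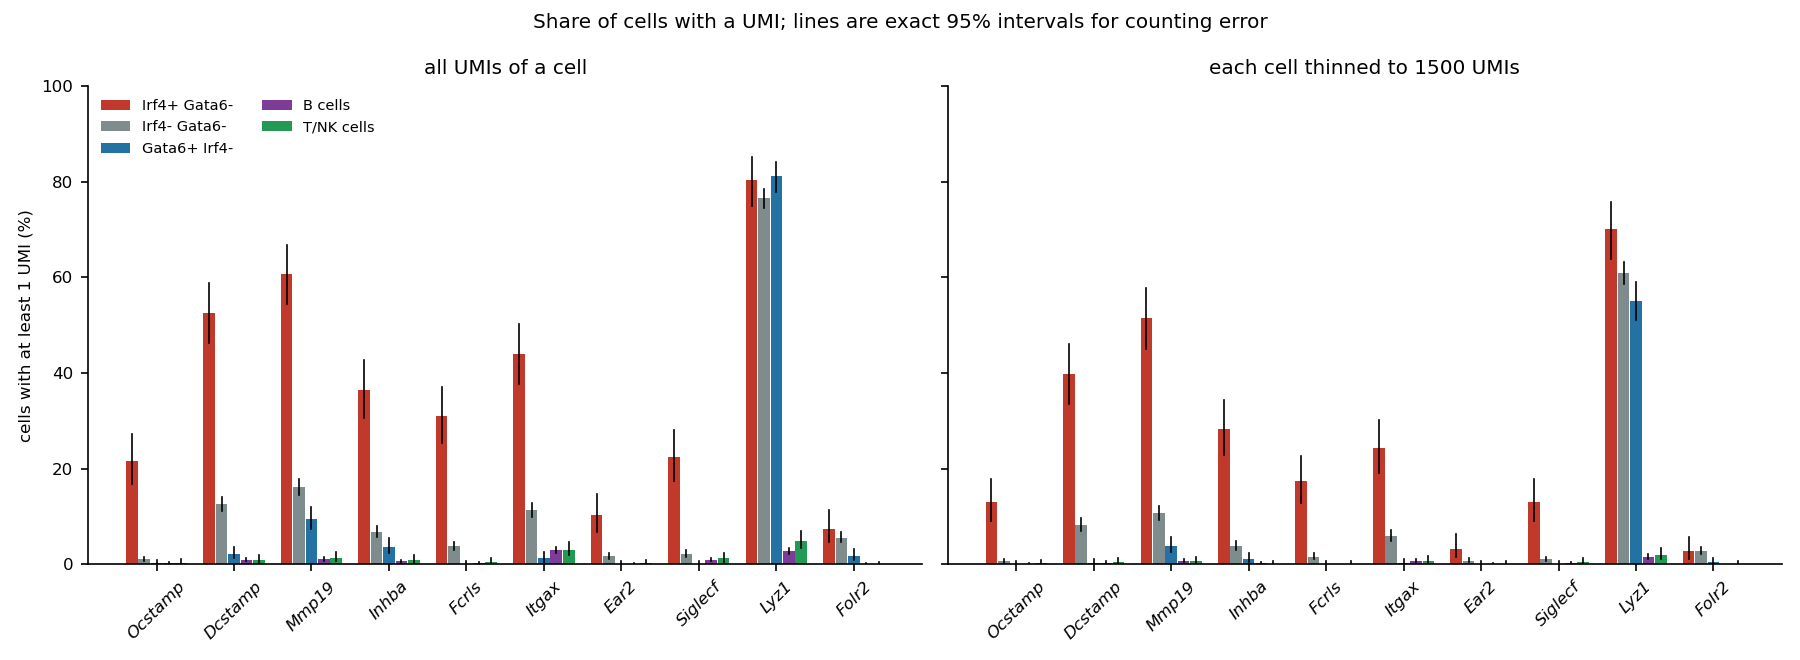
Share of cells with at least 1 UMI of each gene (vertical axis, %) in 5 cell classes, with exact 95% intervals for counting error, from all UMIs (left) and after thinning each cell to 1500 UMIs (right). Apart from Lyz1, which 80.4% of Irf4+ Gata6- and 81.1% of Gata6+ Irf4- MΦs carried before thinning, the red bars of Irf4+ Gata6- MΦs are the highest for each gene, and for Folr2 their intervals overlap those of MΦs with neither (7.45% and 5.53%).

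The rule draws its line at 1 UMI of Irf4, and the summed level was higher at each further UMI for 9 of the 10, with neighbouring intervals that overlapped for several. MΦs with 0, 1, 2 and 3 or more Irf4 UMIs (2496, 134, 50 and 93 cells, at median depths between 4003 and 4488 UMIs) had 50.3, 219, 282 and 608 CPM of Dcstamp. Ocstamp had 3.62, 38.4, 82.9 and 166 CPM, Siglecf 5.63, 44.8, 112 and 284 CPM, and Inhba 39.4, 187, 352 and 1049.9 CPM. Mmp19 hardly differed between 1 and 2 UMIs, with 872 (800–949) and 912 CPM (796–1041), and had 2227 CPM (2097–2364) at 3 or more. Fcrls, Itgax, Ear2 and Lyz1 were likewise highest at 3 or more, with 152, 269, 43.1 and 5061 CPM. Folr2 was highest just inside the line, with 40.0 CPM (25.9–59.1) at 1 UMI, and had 12.3 CPM (4.52–26.8) at 3 or more and 14.8 CPM (12.7–17.1) at 0. The lower line of the MΦ gate, at 2 UMIs of Csf1r, Adgre1 and Fcer1g, cut through cells with these genes. Cells with 1 gate UMI, outside it, had 210 CPM of Dcstamp and 764 CPM of Mmp19, cells with 2, inside it, 193 and 582 CPM, and cells with 4 or more 66.4 and 200.4 CPM.

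**Figure D4:**
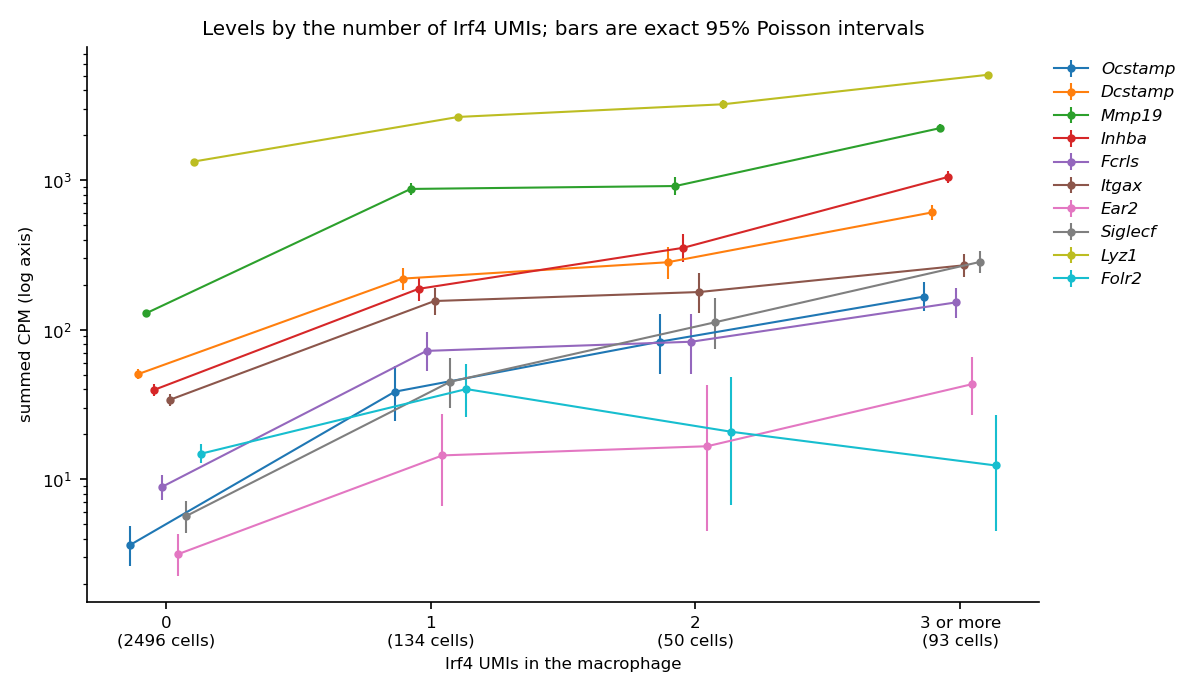
Summed CPM of each gene (logarithmic vertical axis) in MΦs by their number of Irf4 UMIs (horizontal axis, with the number of cells), with exact 95% Poisson intervals. Of the 10 lines, 9 are highest at 3 or more UMIs, and Folr2 peaks at 1 UMI with 40.0 CPM and falls to 12.3 CPM.

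Most cells with Ocstamp also had Dcstamp. Of 77 MΦs with Ocstamp, 69 also had Dcstamp (89.6%, 80.6–95.4%), against 11.7% of MΦs without Ocstamp, at median depths of 4551 and 4424.5 UMIs. Seen from the more frequent gene, 17.9% (14.2–22.1%) of 385 MΦs with Dcstamp had Ocstamp, against 0.335% (0.145–0.659%) of the 2388 without. With cells thinned to 1500 UMIs the latter shares were 12% and 0.533%. The pairing also held inside the Irf4+ Gata6- class, where 50 of 55 cells with Ocstamp had Dcstamp, against 84 of the 200 without, and among MΦs with neither, where 17 of 19 did.

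Mmp19 was found in 92.2% of MΦs with Ocstamp, against 16.7% of those without it. The shares were 87.9% with and 16.2% without Siglecf, and 83.2% with and 15.1% without Fcrls. With Folr2 it was 25.4% (18.3–33.6%), against 18.4% (17.0–19.9%) without. Fcrls and Siglecf shared 54 cells, which were 36.2% of the 149 MΦs with Fcrls and 54.5% of the 99 with Siglecf. Inside the Irf4+ Gata6- class Fcrls was found in 66.7% (52.9–78.6%) of the cells with Siglecf and in 20.7% (15.3–27.0%) of those without. Of the 134 MΦs with Folr2 none had Siglecf or Ear2, which leaves an upper limit of 2.72% by the exact interval. Without Folr2 these shares were 3.75% for Siglecf and 2.16% for Ear2, so for Ear2 no difference was detectable at this depth. For Siglecf the shares mix classes, so no difference is read from them. Of the 134 cells, 103 had neither Irf4 nor Gata6, and 2.15% of all such MΦs had Siglecf, which is below the limit of 2.72%. Ocstamp was found in 3 of the 134 (2.24%), against 2.80% without Folr2, and Dcstamp in 16 (11.9%, 6.98–18.7%), against 14.0% (12.7–15.4%) of MΦs without Folr2. In the Irf4+ Gata6- class, 3 of 19 cells with Folr2 had Dcstamp (15.8%, 3.38–39.6%), against 55.5% (48.9–62.0%) of those without.

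**Figure D5:**
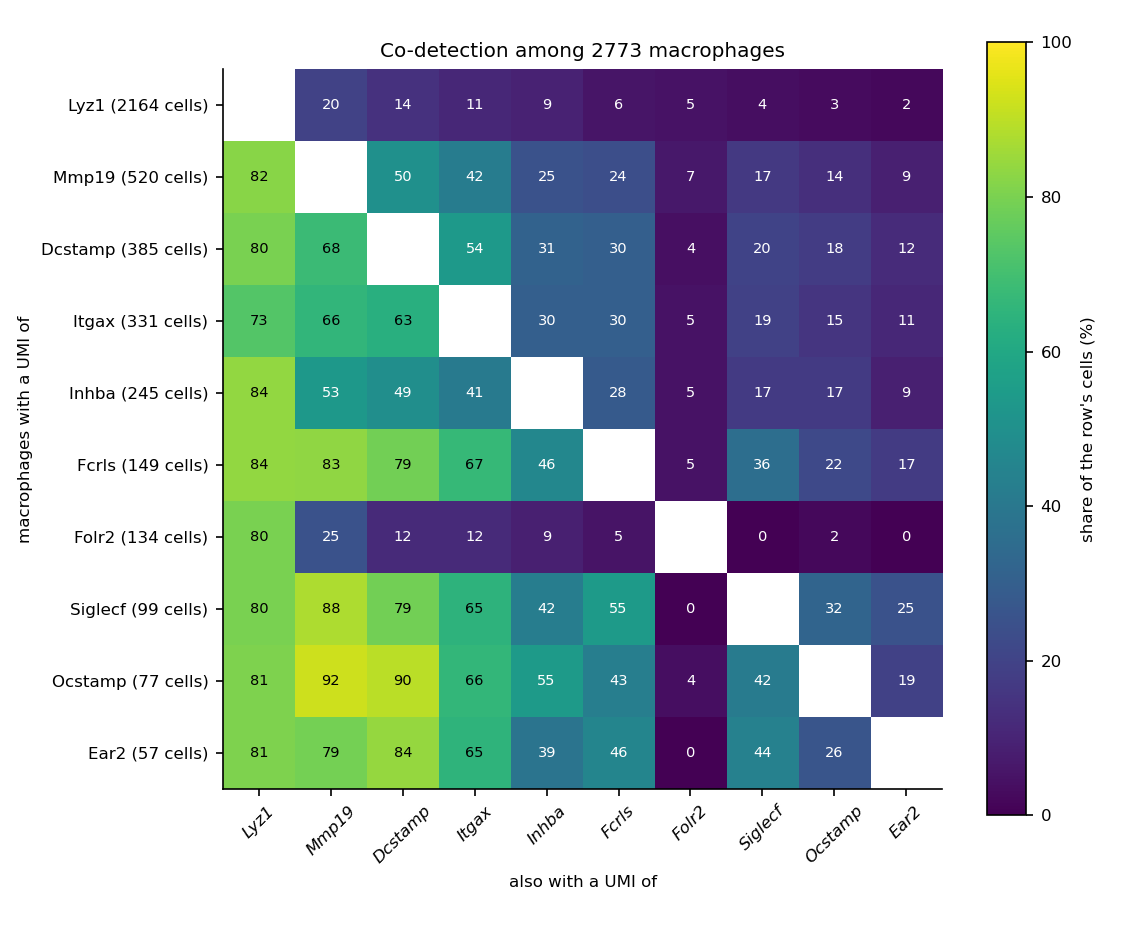
Co-detection among 2773 MΦs. Each square gives the share (%) of the MΦs with a UMI of the row's gene, whose number is in brackets, that also had a UMI of the column's gene. The row of Ocstamp shows 92 for Mmp19 and 90 for Dcstamp, and the row of Folr2 shows 0 for Siglecf and Ear2.

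Counted per cell, 62.7% (56.5–68.7%) of Irf4+ Gata6- MΦs had at least 3 of the 10 genes, with a median of 4 and a maximum of 8. In Gata6+ Irf4- MΦs this was 2.2% (1.21–3.67%), in MΦs with neither 12.6% (11.1–14.2%), in B cells 0.871% and in T/NK cells 1.35%. Without Lyz1 and Folr2, 137 Irf4+ Gata6- MΦs (53.7%, 47.4–60%) had at least 3 of the other 8 genes and 62 (24.3%) had none. Among MΦs with neither, 141 had at least 3 and 1339 had none. The 8 genes were chosen as high in SPMs or in MΦs with Irf4 of these data, so what follows is a description. Of these 141 cells without an Irf4 UMI, 97.9% had H2-Ab1, 22.7% had Ccr2 and 89.4% had Retnla. The shares were 43.2%, 2.17% and 23.5% of the 1339 cells with none. LPM markers were lower in the 141 cells, with Prg4 in 12.8% against 87.8% of cells, F5 in 11.3% against 67.5% and the 13 markers together at 4401 against 12692 CPM. The summed DC markers were at 107 against 28.8 CPM and the B cell markers at 48.9 against 16.9 CPM, and their part in these values was not tested. Median depth was 4055 and 4121 UMIs.

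The 62 Irf4+ Gata6- MΦs with none of the 8 genes differed in the opposite way. H2-Ab1 was found in 41.9% of them and Prg4 in 79.0%, against 97.8% and 3.65% of the 137 Irf4+ Gata6- MΦs with at least 3. Cd79a, the B cell receptor chain, was found in 14.5% and 1.46% of these cells, and the 6 B cell markers together had 282 and 52.5 CPM. Folr2 was found in 16.1% and 1.46%. Median depth was 4299.5 and 4182 UMIs. The part of B cell RNA in the Irf4 counts of the 62 cells was not tested.

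Over the profiles of 4 macrophage classes, B cells and T/NK cells in each library (33 profiles with at least 20000 UMIs), the 3 genes most like each of 5 members among 9400 candidates were found by Pearson r of log2(CPM + 1). Dcstamp was most like Mmp19 (r = 0.95), followed by Anxa2 (0.91) and Pcyt1a (0.90). Ocstamp was most like Siglecf (0.94), Gm19510 (0.92) and Mir9-3hg (0.88), Mmp19 was like Dcstamp, Ccl9 (0.92) and Inhba (0.88), Inhba was like Wfs1 (0.89), Mmp19 and Retnla (0.88), and Fcrls was like Clec4b1 (0.93), Gnat3 (0.91) and Etv3 (0.89). By Spearman's rho Mmp19 stayed first for Dcstamp, Dcstamp for Mmp19, Wfs1 for Inhba and Clec4b1 for Fcrls, whereas none of the 3 genes stayed for Ocstamp. The profiles share libraries and depth and the classes were cut by Irf4 and Gata6, so these values are descriptions.

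Promoters were read from RefSeq (GRCm38.p6), which matched 7 of the 10 members at 8 start sites, and the 250 bases before each start were searched on both strands for the letters TGANTCA, bound by AP-1, then for GAGGAA, the core letters of PU.1 sites, and for AGATAA, those of GATA factors. Matches of different motifs did not overlap. AP-1 letters were found for Itgax and Folr2 (6.75% of 32851 promoters hold them), PU.1 letters for Fcrls and Siglecf (23.3%), and GATA letters for Fcrls and Itgax (9.99%). Inhba, Ear2 and Lyz1 had none of the 3 in this window. The outer start of Folr2 had none of the 3 either and is not shown. The windows of Fcrls, Itgax and the outer start of Folr2 overlap an annotated untranslated region. That of Fcrls (chr3:87263525-87263774) reaches into the gene at its GENCODE position (87250758–87263738), so it is not all promoter. Siglecf and the inner start of Folr2 are shown as examples, with the matching letters in capitals: PU.1 65 bases before the start of Siglecf (chr7:43351091-43351340, plus strand) and AP-1 74 bases before the inner start of Folr2 (chr7:101845332-101845581, minus strand).
Siglecf: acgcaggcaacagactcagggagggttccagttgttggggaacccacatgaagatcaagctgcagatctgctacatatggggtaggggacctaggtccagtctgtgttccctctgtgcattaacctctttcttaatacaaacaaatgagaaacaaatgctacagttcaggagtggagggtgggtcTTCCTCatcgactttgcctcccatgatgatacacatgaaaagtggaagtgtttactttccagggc
Folr2: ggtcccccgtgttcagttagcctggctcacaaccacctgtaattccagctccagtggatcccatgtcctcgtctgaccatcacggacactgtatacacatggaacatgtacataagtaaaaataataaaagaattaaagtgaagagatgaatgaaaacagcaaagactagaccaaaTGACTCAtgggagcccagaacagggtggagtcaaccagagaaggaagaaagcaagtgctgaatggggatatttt
A match is a run of letters and no evidence of binding, and these data hold no measurement of it.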

How the data were processed

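Peritoneal cells of 6 pooled libraries were captured on a droplet platform with a 5′ kit. The deposited table holds raw counts (UMIs per gene and cell barcode), which the authors made with Cell Ranger from reads aligned by STAR to hg38 and mm10. The submitters' processing notes name Cell Ranger 2.2 and Seurat 3.0, and the annotation release is not given in the sources used here. A barcode was kept if it had 500 genes or more, a log ratio of genes to UMIs not under 0.8 and no more than 10% mitochondrial UMIs, which left out 95 of 7760. The members, classes and gene lists were chosen with earlier results of these data known.

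UMIs were summed per class and library and divided by the class total (CPM). Intervals were exact (Poisson for levels, Clopper-Pearson for shares, conditional for ratios) and cover counting error only. A count of 0 was set to 3 UMIs over the class as the base of a ratio. Genes with at least 10 UMIs over both classes were compared. No test between samples was made, since library numbers were not matched to conditions. Named were the members, listed genes with at least 20 UMIs in MΦs and the 3 genes most like each of 5 members, and genes named for having fewer UMIs, along with markers of other cells, were chosen after their values were seen. Scrublet (scanpy 1.11.5, expected rate 0.01) called 47 barcodes (0.606%) as doublets, which were kept. Gene positions, coding sequences and 98-base windows (the length of read 2) came from GENCODE vM21 and promoters from RefSeq, both on GRCm38. Calculations used Python 3.11.15, numpy 2.4.6, scipy 1.17.1 and pandas 2.3.3, and figures matplotlib 3.10.9. The steps were tested on simulated data. The alternatives were other cell filters, gates, splits, weights, thinning and leaving out each library, and 1, leaving out shared barcodes, was added after seeing the data.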

Additional observations from a re-analysis of the deposited data

Results flagged for a closer look

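The 10 genes were also found in the 1277 kept cells that met none of the class definitions and entered no comparison. Of these cells 1039 had no UMI of Csf1r, Adgre1 or Fcer1g, 220 had 1, and 287 had 3 UMIs of Cd79a and Cd79b, and their median depth was 2735 UMIs. The fusion receptors had 7.68 CPM (Ocstamp, 19 positive cells) and 39.4 CPM (Dcstamp, 84 cells) there, Mmp19 143 CPM (111 cells) and Inhba 33.1 CPM (39 cells). Fcrls had 7.92 CPM, Itgax 33.1 CPM, Ear2 3.26 CPM, Siglecf 13.5 CPM, Lyz1 309 CPM and Folr2 2.79 CPM. Each of these levels lay above that of B cells and of T/NK cells. At least 3 of the 8 genes other than Lyz1 and Folr2 were found in 68 of the 1277 cells (5.32%, 4.16–6.70%).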

How the results depend on the processing

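All 10 genes stayed at least 2-fold higher in Irf4+ Gata6- than in Gata6+ Irf4- MΦs under each of the 16 alternatives computed for the ratio, and none of the 160 log2 ratios changed sign, although 26 moved by more than their interval. With each cell thinned to 1500 UMIs, 12% instead of 17.9% of MΦs with Dcstamp had Ocstamp, and leaving out each library in turn gave 15.4% to 19.1%. In the same leave-one-out runs 10 genes stayed 2-fold higher, 9 or 10 were highest in the Irf4+ Gata6- class and 8 or 9 were found in at least 10% of its cells. The ratio of Ocstamp depended most on the base, with log2 values between 5.29 and 9.86, while Lyz1 stayed between 1.86 and 2.28 and Mmp19 between 5.40 and 6.08. Ratios against 0 UMIs rest on the floor, so they change with the depth of that class when cells or UMIs are left out. The log2 ratio of Siglecf, for example, was 7.68 with no Cd79a or Cd79b UMI allowed in MΦs and 5.44 after thinning, in place of 7.63. Ear2, Folr2 and single libraries rest on few UMIs, which limits their order. No paired comparison of conditions was possible, the library numbers not being matched to them. Classes were set side by side within each library, with no test.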

Other observations

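Among the marker lists of other cells, Sdc1, which encodes syndecan-1 and marks plasma cells, had 668 CPM in Irf4+ Gata6- and 21.8 CPM in Gata6+ Irf4- MΦs. The other listed plasma cell genes did not differ in this way, with 233 against 228 CPM of Xbp1, 55.9 against 65.7 CPM of Prdm1 and no UMI of Jchain in either class. Batf3, a transcription factor of DCs, had 28.4 against 0.525 CPM, and Mrc1, a mannose receptor, 30.0 against 0.788 CPM. Of 5 monocyte markers that could be compared, Ccr2 alone was at least 2-fold higher, with 83.4 against 3.15 CPM, and 4 lay between. Over all 10733 genes compared, 12.5% were at least 2-fold higher. Neutrophil S100a8 was lower, with 10.0 against 28.4 CPM, and S100a9 had no UMI in either class. No mast cell or T/NK cell marker had enough UMIs to compare. These genes were chosen after their values were seen.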
